A study of Homo sapiens with 24 samples.

Results

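The KDM2, KDM5 and KDM6 genes encode histone lysine demethylases with a Jumonji C (JmjC) catalytic domain. These enzymes take methyl groups off lysines of histone H3 in a reaction that consumes molecular oxygen and needs iron and alpha-ketoglutarate. KDM2A and KDM2B act on methylated H3K36 and carry a zinc finger that binds unmethylated CpG islands, where KDM2B brings in a variant Polycomb repressive complex. KDM5A, KDM5B and KDM5C remove H3K4 methylation, a mark of active promoters, and KDM6A (UTX) and KDM6B (JMJD3) remove H3K27 methylation, the mark laid down by Polycomb repressive complex 2. The 7 genes were taken by symbol from the 23106 gene symbols of the count tables, and all 7 were found and passed the filter on low counts in every line. The transcript of each was measured, and not the protein or its activity on histones.

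The counts came from polyadenylated RNA of 4 human cancer cell lines. A549 is a lung line and PC3 a prostate line, both grown in F12K medium, HCT116 is a colorectal line grown in McCoy's 5a, and T47D is a breast line grown in DMEM. Each line was kept in 21% oxygen (normoxia) or in 0.5% oxygen (hypoxia) for 16 h in a hypoxia workstation, with 3 libraries in each of the 8 groups and 24 libraries in all. No gene was deleted or added, and the labels do not say whether the 3 libraries of a group came from separate cultures, so p values measure only the spread between these libraries. Being bulk RNA, the libraries cannot tell a change in every cell from a change in the share of cells that carry a transcript. Library totals ranged from 22698584 to 62850747 counts, and the 7 genes had between 479 counts (KDM6B) and 26233 counts (KDM2A) in a library.

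The lines showed only some of the genes that define their tissue. T47D cells had 102 to 199 CPM of ESR1 (the estrogen receptor) and 643 to 941 CPM of GATA3, where CPM in this paragraph is the count scaled to the library total. Of the same breast list, TFF1 went the other way, with 0.80 to 7.31 CPM in T47D and 16.0 to 31.9 CPM in PC3 cells. PC3 cells had 74.4 to 123 CPM of HOXB13, while the prostate secretory gene KLK3 was at 0. HCT116 cells had 9.04 to 21.9 CPM of the intestinal factor CDX2, with LGR5 at 0 and CDH17 at 0 to 0.118 CPM, while A549 cells had 8.04 to 17.9 CPM of CDH17. In A549 cells the lung genes NKX2-1 (at most 0.0708 CPM) and SFTPB (at most 0.0696 CPM) were near 0. HCT116 cells had more NKX2-1, at 0.756 to 3.17 CPM. The lung gene NAPSA reached 1.16 CPM in HCT116 and 0.658 CPM in A549 cells. The leukocyte markers PTPRC and CD3E did not exceed 0.30 and 0.0656 CPM and the endothelial marker CDH5 did not exceed 0.271 CPM in any line. Of the same lists, the lysosomal leukocyte marker CD68 was higher in every hypoxic than in every normoxic library of 3 lines. It had 4.62 to 6.33 CPM in normoxia and 15.7 to 39.7 CPM in hypoxia in HCT116 cells, 20.4 to 29.9 and 33.4 to 36.4 CPM in A549 cells, and 27.6 to 28.9 and 29.2 to 35.1 CPM in PC3 cells. In T47D cells it was at most 1.76 CPM. The endothelial gene PECAM1 moved with oxygen in PC3 cells, from 0.749 to 1.26 CPM in normoxia to 1.32 to 2.74 CPM in hypoxia, and was at most 0.0718 CPM in the other lines. The part of these genes in the results was not tested. The fibroblast gene COL1A2 was at most 0.478 CPM, although COL1A1 reached 66.9 CPM in T47D cells.

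Hypoxia was evident in each line. Of 10 hypoxia marker genes, 10 rose in A549, HCT116 and T47D cells and 9 in PC3 cells, where PDK1 was the exception (log2 fold change 0.11). EGLN3, a HIF prolyl hydroxylase, rose by 5.15, 3.28, 1.503 and 3.98 on the log2 scale in A549, HCT116, PC3 and T47D cells, and the stress gene NDRG1 by 4.63, 4.70, 2.43 and 6.61. CA9, a carbonic anhydrase of the cell surface, rose by 8.40, 7.37 and 1.81 in A549, HCT116 and PC3 cells. In T47D cells CA9 had 0 counts in each normoxic library and 1631 to 2601 in the hypoxic ones. The study had chosen ADM, ANKRD37, NDRG1 and SLC2A1 of these 10 on the same samples. It also named BNIP3, EGLN3 and PDK1 as bound by HIF and induced in most of its lines, which include those here. The count is therefore not independent evidence of direction. The markers moved least in PC3 cells, with a median log2 change of 1.05.

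Some libraries stood apart from their groups. The third hypoxic T47D library had the lowest mean correlation with its group (0.965), a TMM factor of 0.883 and the lowest level of the 7 genes relative to its group, by -0.33 on the log2 scale. Transcripts as long as those of the 7 genes were also low in it, by a median of -0.29. The T47D results of each member are therefore given with and without this library. The second normoxic HCT116 library had the lowest TMM factor of all (0.861, against 1.05 and 1.07 in its group), and in the first the 7 genes were high, by 0.31 on the log2 scale. All 7 genes were called in HCT116 cells without either of them.

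All 7 genes have long transcripts, from 5315 bases (KDM2B) to 10701 bases (KDM5A) in the canonical GENCODE model. Genes of that length shifted upwards in hypoxia as a class. The median shift was 0.14 on the log2 scale in A549, 0.28 in HCT116, 0.13 in PC3 and 0.083 in T47D cells, against -0.012, -0.026, -0.011 and -0.015 over all genes tested. A correction by splines for GC content and length, chosen after seeing the data, was therefore run beside the tests of the 7 genes in hypoxia, and its result is given wherever it changed a call. From here on, CPM of the 7 genes is scaled with TMM factors.

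KDM5B and KDM6A are at opposite ends of what follows, and the 250 bases upstream of their transcription starts are shown here because hypoxia-inducible factor (HIF) binds the core motif ACGTG or GCGTG. The sequences are from RefSeq, each matched GRCh37 at a single place, and capitals mark matches to either motif on either strand. KDM5B starts on the minus strand of chromosome 1 and its window is 1:202777550-202777799. KDM6A starts on the plus strand of the X chromosome and its window is X:44732184-44732433.
KDM5B: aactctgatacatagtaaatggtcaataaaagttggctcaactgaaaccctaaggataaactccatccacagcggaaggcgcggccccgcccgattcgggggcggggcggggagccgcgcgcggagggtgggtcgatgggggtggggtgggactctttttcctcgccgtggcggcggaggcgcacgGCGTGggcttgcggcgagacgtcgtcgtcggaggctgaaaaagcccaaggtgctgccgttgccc
KDM6A: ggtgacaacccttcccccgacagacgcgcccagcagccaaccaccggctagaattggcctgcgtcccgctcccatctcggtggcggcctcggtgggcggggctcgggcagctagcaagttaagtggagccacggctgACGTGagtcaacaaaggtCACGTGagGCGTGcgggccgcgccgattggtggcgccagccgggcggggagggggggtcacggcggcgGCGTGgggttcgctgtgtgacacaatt
The KDM5B window held 1 GCGTG, 64 bases upstream of the start, and no ACGTG. The KDM6A window held 3 ACGTG matches, of which a pair overlap as both strands of CACGTG, and 2 GCGTG matches. Over the 12 upstream windows that RefSeq lists for the 7 genes, 1 held ACGTG and 8 held GCGTG. Among 35116 windows of the same length, 18.5% held ACGTG, 32.2% held GCGTG and 43.2% held either. A match of letters is not a bound site, and these windows do not cover enhancers.

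The first comparison asked which of the 7 genes changed with hypoxia in each line. A gene was called when its edgeR quasi-likelihood test gave an adjusted p under 0.05 with a fold change over 1.2. By this rule 4 of 7 were upregulated in A549 cells, 7 of 7 in HCT116 cells, 6 of 7 in PC3 cells and 1 of 7 in T47D cells, and none was downregulated in any line. The T47D count was 5 of 7 without the third hypoxic library and 0 without the first or the second normoxic one. The number of all genes called in T47D cells also moved with the library left out. It was lower without either of these normoxic libraries, as given under KDM5B. The A549 count was 2 of 7 without any one of the first 2 libraries of either oxygen state. Over all genes, A549 calls in either direction went from 4928 to 4075 and 3357 without the first or the second hypoxic library. Without the first or the second normoxic one they were 3440 and 3109. Among all genes tested with all libraries, the upregulated share was 17.6% in A549, 23.3% in HCT116, 16.6% in PC3 and 6.55% in T47D cells. The downregulated share was 17.8%, 27%, 15.7% and 6.69%. Among genes as long as the 7, the upregulated share was 25.6%, 33.4%, 25.1% and 6.84% in A549, HCT116, PC3 and T47D cells. KDM5B, an H3K4 demethylase, was the only member called in all 4 lines, and KDM6A, an H3K27 demethylase, was called in HCT116 cells alone. With the GC content and length correction 2, 3, 3 and 1 genes were called in A549, HCT116, PC3 and T47D cells, and KDM5B was again among them in all 4 lines. The corrected A549 fit called 4373 of all genes in either direction, against 4928 of 13897 without the correction. The 2 of 7 there are thus not set apart from the calls over all genes. Taken as a median over the 7 genes, the log2 change was 0.34, 1.14, 0.45 and 0.42 in the same order of lines.

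**Figure D1:**
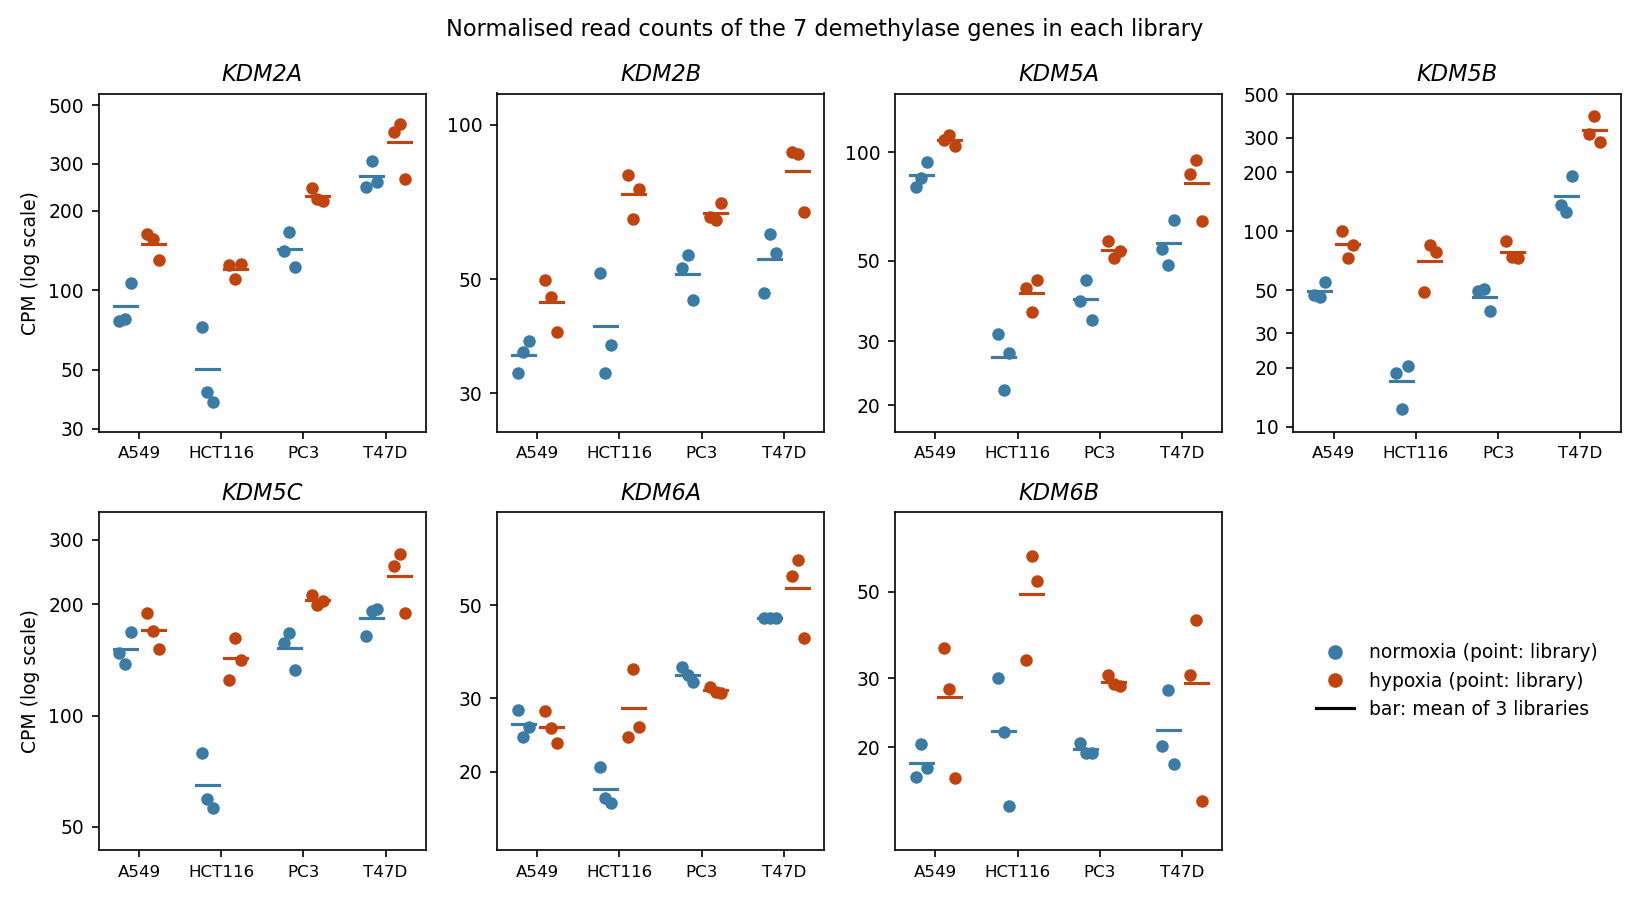
Normalised read counts (CPM on a log axis, scaled within each line) of the 7 genes, with a point for each library and a bar at the mean of 3 libraries. The KDM5B hypoxic points lie above the normoxic points in all 4 lines, and the third hypoxic T47D library (rightmost point of each panel) is the lowest of its group for all 7 genes.

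KDM2A, an H3K36 demethylase of CpG islands, rose in 3 lines. In A549 cells its level was 76.3, 78.1 and 107 CPM in the normoxic libraries and 164, 156 and 129.9 CPM in the hypoxic ones. In HCT116 cells it was 72.7, 41.1 and 37.9 CPM in normoxia and 124, 110.3 and 126 CPM in hypoxia. PC3 cells had 141, 166 and 123 CPM in normoxia and 244, 221 and 218 CPM in hypoxia. The hypoxic libraries were all above the normoxic ones in these 3 lines, a pattern that 23.3%, 28.2% and 25.8% of all genes tested showed in A549, HCT116 and PC3 cells. The fold change was 1.72 in A549 cells (95% confidence interval 1.39 to 2.14, edgeR adjusted p = 0.00185), 2.38 in HCT116 cells (1.65 to 3.42, adjusted p = 0.00113) and 1.59 in PC3 cells (1.33 to 1.91, adjusted p = 0.00432). KDM2A stayed called in these 3 lines under the GC content and length correction, but at log2 fold changes of 0.43, 0.57 and 0.32 in place of 0.79, 1.25 and 0.67.

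T47D cells had the highest KDM2A counts, with 245, 307 and 257 CPM in normoxia and 396, 426 and 264 CPM in hypoxia. The third hypoxic library lay within the normoxic range and the log2 fold change of 0.42 ± 0.24 (SE, n = 3 against 3) was not called (edgeR adjusted p = 0.245). Without that library the log2 fold change was 0.62 and the gene was called (edgeR adjusted p = 0.0429).

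KDM2B, the paralogue of KDM2A that recruits Polycomb proteins, had a smaller log2 fold change than KDM2A in A549, HCT116 and PC3 cells and a larger one in T47D cells, a difference that was not tested. Its level went from 32.9 to 38.0 CPM in normoxic A549 libraries to 39.4 to 49.8 CPM in hypoxic ones, and from 32.8 to 51.5 CPM to 65.6 to 79.7 CPM in HCT116 cells. In PC3 cells the range moved from 45.6 to 55.6 CPM to 65.3 to 70.3 CPM, and in T47D cells from 46.97 to 61.2 CPM to 67.7 to 88.5 CPM. The hypoxic libraries were thus above the normoxic ones in all 4 lines, which 16.7% of all genes showed in T47D cells. KDM2B was called in A549 (log2 fold change 0.34, edgeR adjusted p = 0.0397), HCT116 (0.86, adjusted p = 0.00424) and PC3 cells (0.39, adjusted p = 0.0161), and not in T47D cells (0.57, adjusted p = 0.0755).

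The KDM2B calls were less firm than those of KDM2A. Scaling to total counts ended the A549 call (log2 fold change 0.23, edgeR adjusted p = 0.156), and a single fit of the 24 libraries ended those in A549 (0.35, adjusted p = 0.150) and PC3 cells (0.44, adjusted p = 0.0936). With the GC content and length correction the KDM2B log2 fold changes were 0.060, 0.29 and 0.12 in A549, HCT116 and PC3 cells and none was called. Leaving out either of the first 2 libraries of A549 hypoxia (0.28 and 0.34, edgeR adjusted p = 0.114 and 0.109) or of A549 normoxia (0.29 and 0.35, adjusted p = 0.155 and 0.0994) ended the call, and so did leaving out the second or the third hypoxic library of PC3 cells (0.41 and 0.36, adjusted p = 0.0507 and 0.0618). Without the third hypoxic library of T47D cells KDM2B was called (0.70, adjusted p = 0.0164). KDM2B shares 439 exonic bases with RNF34 and 232 with the noncoding KDM2B-DT, both on the other strand. KDM2A shares 323 exonic bases with a long noncoding RNA on the other strand. Neither noncoding RNA is among the counted genes. The strand setting of the counting is not given in the sources used here, so part of the KDM2B and KDM2A counts is uncertain. RNF34 itself was not called in A549, PC3 and T47D cells (log2 fold change -0.15, -0.029 and -0.33) and was downregulated in HCT116 cells (-0.61, edgeR adjusted p = 0.02001).

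KDM5A, an H3K4 demethylase first found as a partner of the retinoblastoma protein, was called in 3 lines. It had 80.0 to 94.1 CPM in normoxic and 103.7 to 112 CPM in hypoxic A549 libraries, and 21.9 to 31.4 CPM against 36.1 to 44.4 CPM in HCT116 cells. PC3 cells had 34.4 to 44.3 CPM in normoxia and 51.0 to 56.9 CPM in hypoxia. The groups did not overlap in these 3 lines. All hypoxic libraries were above all normoxic ones for 23.3%, 28.2% and 25.8% of all genes tested in A549, HCT116 and PC3 cells. The KDM5A groups did overlap in T47D cells, where normoxic libraries had 48.8 to 65.0 CPM and hypoxic libraries 64.4 to 95.1 CPM. The log2 fold changes were 0.32 (edgeR adjusted p = 0.0329) in A549, 0.59 (adjusted p = 0.0224) in HCT116, 0.45 (adjusted p = 0.0135) in PC3 and 0.55 (adjusted p = 0.0975, not called) in T47D cells.

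As with KDM2B, the A549 call of KDM5A ended on leaving out either of the first 2 libraries of hypoxia (log2 fold change 0.33 and 0.31, edgeR adjusted p = 0.0551 and 0.124) or of normoxia (0.27 and 0.31, adjusted p = 0.156 and 0.111). It ended too with scaling to total counts (0.21, adjusted p = 0.123) and in a single fit of the 24 libraries (0.33, adjusted p = 0.186), which also ended the PC3 call (0.50, adjusted p = 0.0632). The HCT116 call ended without the third hypoxic library (0.59, adjusted p = 0.0774), and the PC3 call without the first (0.41, adjusted p = 0.0548). Without the third hypoxic library of T47D cells KDM5A was called (0.71, adjusted p = 0.0195). The GC content and length correction ended the calls in A549 (0.12) and HCT116 cells (0.37, adjusted p = 0.0923) and kept that in PC3 cells (0.27, adjusted p = 0.0333). KDM5A shares 48 exonic bases with CCDC77 on the other strand, a gene with a mean of 6.26 to 19.3 CPM in the 8 groups. CCDC77 was downregulated in A549 cells (log2 fold change -0.75, edgeR adjusted p = 0.0012). It was not called in HCT116, PC3 and T47D cells (-0.27, -0.26 and -0.029).

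KDM5B, the H3K4 demethylase also known as PLU-1 or JARID1B, had the largest fold change of the 7 genes in each line, although in A549 and PC3 cells it was within the error of that of KDM2A. In A549 cells it had 47.4, 45.9 and 54.7 CPM in normoxia and 99.6, 72.7 and 85.2 CPM in hypoxia. In HCT116 cells it had 18.8, 12.3 and 20.3 CPM in normoxia and 48.6, 84.8 and 78.6 CPM in hypoxia. The groups were apart in both lines, by the widest margin in HCT116 cells. PC3 cells went from 49.2, 50.7 and 38.9 CPM to 88.9, 73.4 and 72.7 CPM. T47D cells went from 135, 125 and 191 CPM to 312, 389 and 284 CPM. Here too the lowest hypoxic library, the third of T47D included, was above the highest normoxic one.

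The KDM5B fold change was 4.12 in HCT116 cells (95% confidence interval 2.81 to 6.04, edgeR adjusted p = 0.000116) and 2.18 in T47D cells (1.53 to 3.11, adjusted p = 0.0111). It was 1.74 in A549 cells (1.43 to 2.12, adjusted p = 0.000956) and 1.69 in PC3 cells (1.39 to 2.053, adjusted p = 0.00359). Under the GC content and length correction the log2 fold changes were 0.58, 1.73, 0.56 and 1.03 in the 4 lines, in the order A549, HCT116, PC3 and T47D, each still called. In A549, HCT116 and PC3 cells KDM5B was called in each of the 17 alternatives run, and so was KDM2A. The T47D call ended without the first normoxic library (log2 fold change 1.05, edgeR adjusted p = 0.112) or the second (1.01, adjusted p = 0.0721), at log2 fold changes near that of all 6 libraries (1.13). In those fits 199 and 407 genes were called in T47D cells, against 1864 with all 6 libraries. Without the third hypoxic library the T47D log2 fold change was 1.23 (adjusted p = 0.00454).

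KDM5C, an X-linked H3K4 demethylase, differed between lines in its response. HCT116 cells had 79.4, 59.4 and 56.1 CPM in normoxia and 125, 162 and 142 CPM in hypoxia, with no overlap. PC3 cells had 158, 167 and 133 CPM in normoxia and 212, 199 and 205 CPM in hypoxia, again with no overlap. Of all genes tested, 28.2% in HCT116 and 25.8% in PC3 cells had all hypoxic libraries above all normoxic ones. In A549 cells the normoxic libraries (148, 138 and 169 CPM) overlapped the hypoxic ones (189.9, 169 and 152 CPM). T47D cells also overlapped, with 164, 191 and 194 CPM in normoxia and 255, 274 and 189.8 CPM in hypoxia.

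KDM5C rose 2.20-fold in HCT116 cells (95% confidence interval 1.62 to 2.99, edgeR adjusted p = 0.000690) and 1.35-fold in PC3 cells (1.15 to 1.58, adjusted p = 0.0134). Neither A549 (log2 fold change 0.17, adjusted p = 0.293) nor T47D cells (0.39, adjusted p = 0.243) gave a call, and without the third hypoxic library T47D cells had 0.54 (adjusted p = 0.0598). The GC content and length correction left log2 fold changes of 0.42 in HCT116 cells (adjusted p = 0.0629) and 0.070 in PC3 cells, neither called, and turned that of A549 cells to -0.19. The PC3 call also ended without the first hypoxic library (0.40, adjusted p = 0.0529) and in a single fit of the 24 libraries (0.48).

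KDM6A, the X-linked H3K27 demethylase UTX, had the lowest log2 fold change of the 7 in A549, PC3 and T47D cells. In A549 cells it had 28.2, 24.2 and 25.5 CPM in normoxia and 27.9, 25.5 and 23.4 CPM in hypoxia, which overlap. PC3 cells had 35.5, 34.0 and 32.8 CPM in normoxia and 31.9, 31.1 and 30.9 CPM in hypoxia. All PC3 hypoxic libraries were thus below the normoxic ones, which no member showed in another line. The background share of this pattern was 25.6% in PC3, 24.8% in A549, 32.1% in HCT116 and 15.8% in T47D cells. In PC3 cells the KDM6A log2 fold change was -0.12 ± 0.089 (SE, n = 3 against 3, edgeR adjusted p = 0.303). T47D cells had 46.5, 46.7 and 46.7 CPM in normoxia and 58.7, 64.3 and 41.9 CPM in hypoxia. There the third hypoxic library was below all normoxic ones and the gene was not called (log2 fold change 0.24, adjusted p = 0.455), nor was it without that library (0.41, adjusted p = 0.0917).

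HCT116 cells alone gave a call of KDM6A, with 20.5, 17.3 and 16.9 CPM in normoxia and 24.2, 35.3 and 25.6 CPM in hypoxia. The fold change was 1.56 (95% confidence interval 1.15 to 2.11, edgeR adjusted p = 0.0191), and the log2 fold change of 0.64 was 0.57 under the GC content and length correction and still called. It was not called without the second hypoxic library (0.46, adjusted p = 0.101). For A549 cells the interval of the fold change ran from 0.83 to 1.17.

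KDM6B is the H3K27 demethylase JMJD3, known for rapid induction by inflammatory signals. The SE of its log2 fold change was the largest of the members in T47D, A549 and HCT116 cells (0.32, 0.22 and 0.28). In PC3 cells the SE was 0.094. PC3 libraries were tight, at 20.5, 19.3 and 19.3 CPM in normoxia and 30.6, 29.0 and 28.7 CPM in hypoxia. HCT116 cells had 30.1, 21.8 and 14.1 CPM in normoxia and 33.3, 61.6 and 53.4 CPM in hypoxia. The groups did not overlap in these lines, although in HCT116 cells the highest normoxic and lowest hypoxic libraries were close. Hypoxic libraries were all above normoxic ones for 25.8% of all genes tested in PC3 and 28.2% in HCT116 cells. In A549 cells the hypoxic libraries had 35.8, 28.2 and 16.7 CPM and the normoxic ones 16.7, 20.3 and 17.7 CPM. T47D cells had 20.1, 28.0 and 18.1 CPM in normoxia and 30.7, 42.3 and 14.6 CPM in hypoxia. The third hypoxic library was level with the lowest normoxic one in A549 cells and was the lowest of all 6 in T47D cells.

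KDM6B was upregulated in PC3 (1.49-fold, 95% confidence interval 1.29 to 1.72, edgeR adjusted p = 0.00340) and HCT116 cells (2.25-fold, 1.48 to 3.42, adjusted p = 0.00415). A single fit of the 24 libraries ended the PC3 call (log2 fold change 0.63). KDM6B was not called in A549 (log2 fold change 0.56, adjusted p = 0.0608) or T47D cells (0.40, adjusted p = 0.413). Without the third hypoxic library it was called in both, at 0.82 (adjusted p = 0.00138) in A549 and 0.74 (adjusted p = 0.0323) in T47D cells. In A549 cells it was also called with DESeq2 (0.57, DESeq2 adjusted p = 0.0236) and with no filter (0.56, edgeR adjusted p = 0.0308). With the GC content and length correction it was called in no line, and its log2 fold changes were 0.034, 0.25, 0.089 and -0.095 in the order A549, HCT116, PC3 and T47D. The KDM6B transcript had the highest GC content of the 7, at 62.2%.

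**Figure D2:**
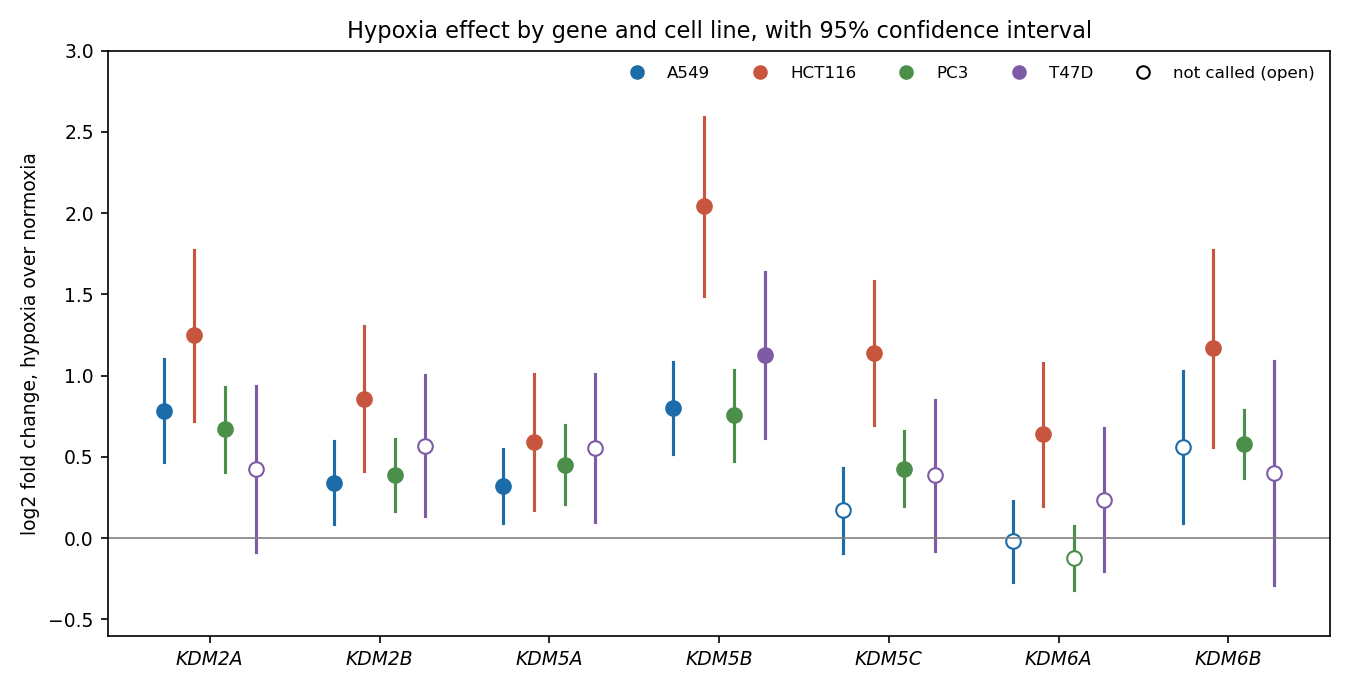
The log2 fold change of hypoxia over normoxia for each gene and line (point) with its 95% confidence interval (line), filled where called. KDM5B is filled in all 4 lines and reaches 2.04 in HCT116 cells, while KDM6A is filled only in HCT116 cells.

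**Figure D3:**
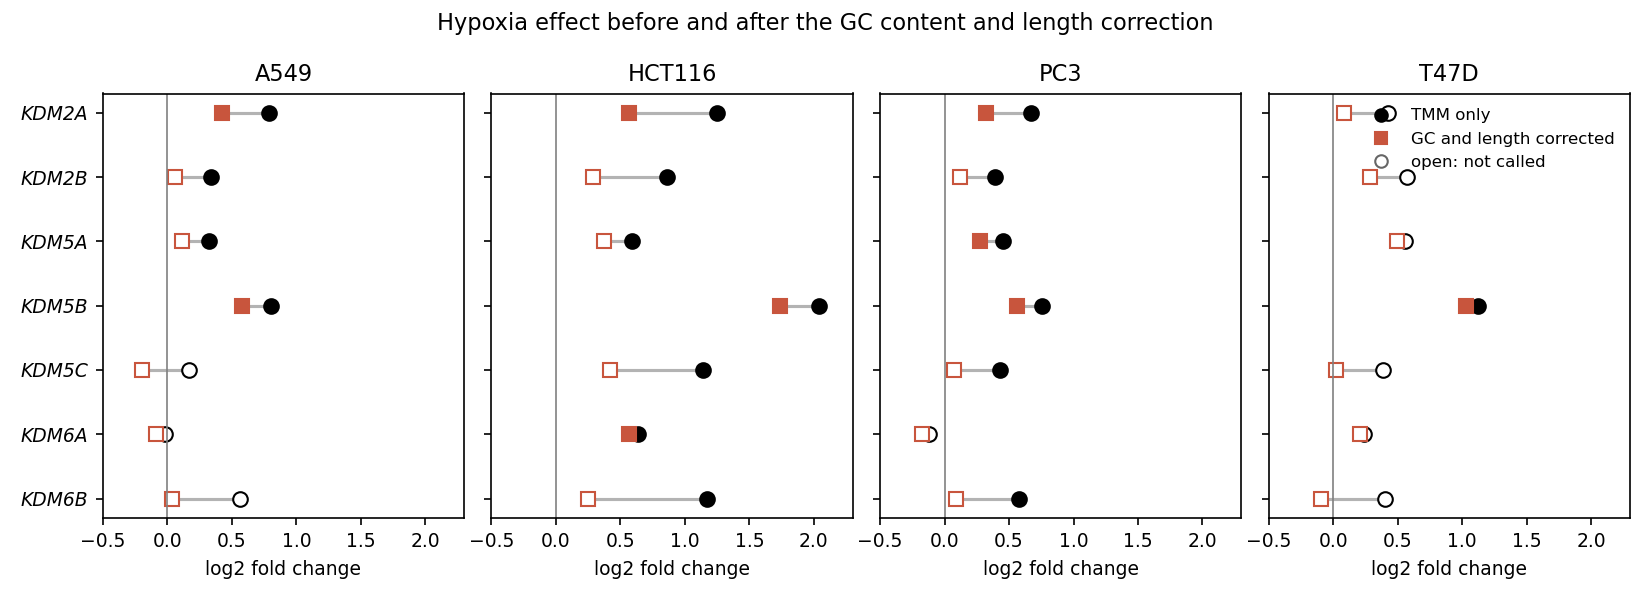
The log2 fold change (x axis) of each gene in each line with TMM scaling only (circles) and with the added GC content and length correction (squares), filled where called. KDM5B keeps filled symbols in each line, KDM2A in 3 lines, and KDM6B loses both of its filled symbols.

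Whether the response to hypoxia differed between lines was tested as an interaction of line and hypoxia in a single edgeR fit of the 24 libraries. It differed for 3 of the 7 genes, KDM5B (adjusted p = 0.0113), KDM5C (adjusted p = 0.0118) and KDM6A (adjusted p = 0.0310), against 18.3% of the 16089 genes tested. It did not reach the threshold for KDM2A (adjusted p = 0.126), KDM2B (0.142), KDM5A (0.551) or KDM6B (0.378). The 3 calls held with the GC content and length correction (adjusted p = 0.0117, 0.0167 and 0.0110). Without replicate 2 of each group none of the 3 passed (adjusted p = 0.396, 0.368 and 0.645), in a fit that called 165 genes against 2940 with all libraries. KDM6A also lost its call without replicate 1 (adjusted p = 0.135) and with replicate numbers entered as a block (adjusted p = 0.0506), and KDM5C without replicate 3 (adjusted p = 0.0578).

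HCT116 cells were the line that differed. Of 42 comparisons of the effect between 2 lines, 6 for each gene with p values adjusted over all genes, 7 passed, and each had HCT116 cells on the higher side. The KDM5B effect was larger in HCT116 than in A549 cells by 1.35 on the log2 scale (95% confidence interval 0.70 to 2.01, edgeR adjusted p = 0.00778), and smaller in PC3 than in HCT116 cells by the same margin (-1.35, interval -2.00 to -0.70, adjusted p = 0.00801). The KDM5C effect exceeded that of A549 cells by 1.09 (0.61 to 1.57, adjusted p = 0.00504), and PC3 (-0.79, adjusted p = 0.0263) and T47D cells (-0.80, adjusted p = 0.0341) were below HCT116 cells. In the fits within each line, the GC content and length correction took the KDM5C log2 fold change from 1.14 to 0.42 in HCT116 cells. In A549 cells it went from 0.17 to -0.19. The KDM6A effect was larger than in A549 cells by 0.78 (0.31 to 1.25, adjusted p = 0.0227) and lower in PC3 than in HCT116 cells (-0.84, adjusted p = 0.0169). The share of all genes that differed was 16.7% for HCT116 against A549, 14.9% for PC3 against HCT116 and 9.07% for T47D against HCT116 cells. It was 0.758% for PC3 against A549, 2.11% for T47D against A549 and 2.25% for T47D against PC3 cells, the pairs in which no member differed.

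The other pairs gave no difference that passed, with intervals that leave room for sizeable ones. PC3 and A549 cells differed in their KDM5B effect by 0.0014 on the log2 scale, with an interval from -0.65 to 0.65. For KDM6B the difference between HCT116 and A549 cells was 0.74, with an interval from -0.14 to 1.62. The HCT116 response was also the broadest of the 4 over all genes, as the shares of called genes above show.

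Levels in normoxia were then compared between lines and between genes as RPKM, which is CPM per kilobase of canonical transcript. Over the 12 normoxic libraries KDM5C had the highest median (25.6 RPKM), followed by KDM2A (15.5), KDM2B (7.87), KDM5B (5.31), KDM6A (4.98), KDM5A (4.07) and KDM6B (2.82). The order differed between lines. In normoxic T47D cells KDM5B (11.9 to 19.1 RPKM) was above KDM2B (7.67 to 10.2 RPKM), and the mean of KDM2A was above that of KDM5C, with overlapping libraries. In normoxic HCT116 cells the libraries of KDM2A (5.41 to 9.56 RPKM) and KDM2B (6.02 to 9.40 RPKM) overlapped, and KDM6B had a higher mean than KDM5A, KDM5B and KDM6A. The order of the medians below KDM2A depends on the transcript length used. With the merged exons of all transcripts as length, an alternative added after seeing the data, KDM5A (3.62 RPKM) came next after KDM2A, and KDM5B (1.98) and KDM6A (1.09) came last.

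**Figure D4:**
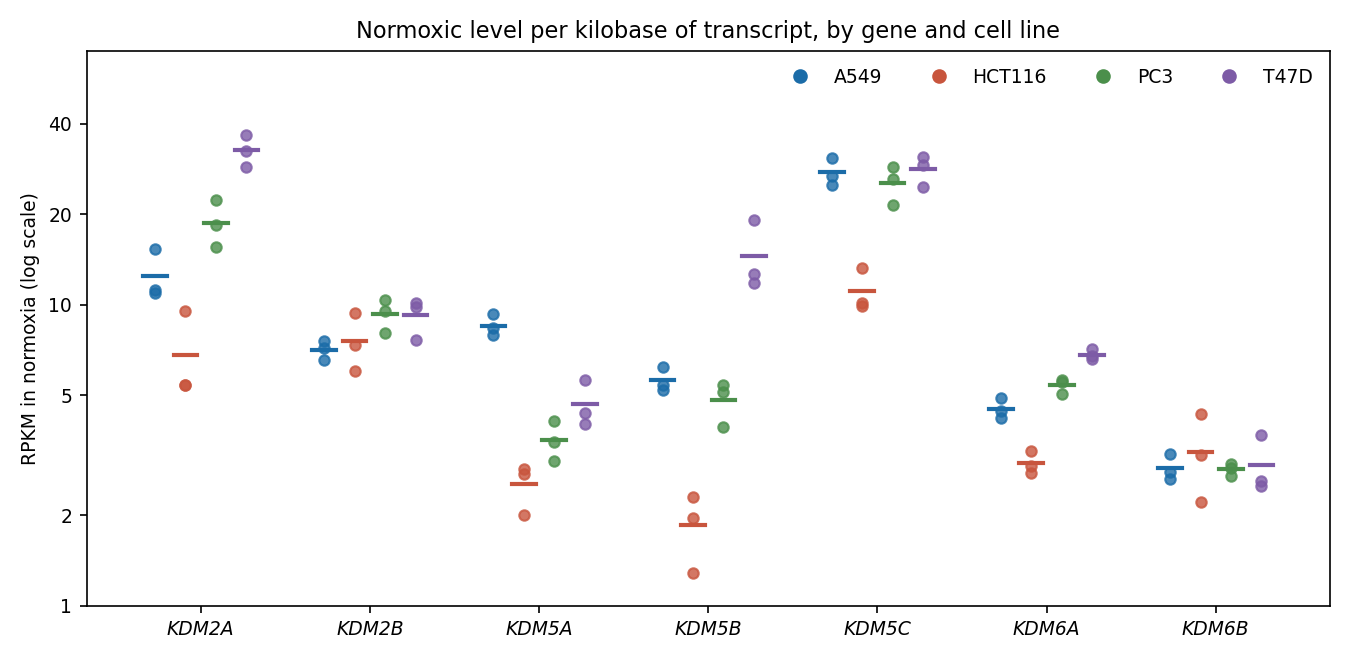
RPKM in normoxia (log axis) of the 7 genes, with a point for each library, a bar at the mean of 3 libraries and a color for each line. HCT116 cells have the lowest mean for KDM2A, KDM5A, KDM5B, KDM5C and KDM6A, and the lines overlap for KDM2B and KDM6B.

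The line mattered for 5 of the 7 genes (edgeR adjusted p under 0.05), against 93.5% of the 15616 genes tested. Between 2 lines, 64.9% of genes differed for HCT116 and A549, 60% for PC3 and A549, 66.6% for T47D and A549, 65.6% for PC3 and HCT116, 68.5% for T47D and HCT116 and 67.8% for T47D and PC3 cells. KDM5B varied most, with 14.5 ± 3.99 RPKM (SD, n = 3) in T47D, 5.62 ± 0.541 in A549, 4.83 ± 0.792 in PC3 and 1.85 ± 0.518 in HCT116 cells. Of its 6 pairs of lines only PC3 and A549 cells did not differ (edgeR adjusted p = 0.418). KDM2A had 32.6 ± 3.97 RPKM in T47D, 18.8 ± 3.38 in PC3, 12.5 ± 2.45 in A549 and 6.79 ± 2.39 in HCT116 cells, and each neighbouring pair in this order differed (adjusted p = 0.00550, 0.0331 and 0.00309).

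KDM5A had its highest level in A549 cells, at 8.54 ± 0.710 RPKM, followed by T47D (4.69 ± 0.850), PC3 (3.55 ± 0.547) and HCT116 cells (2.53 ± 0.464), where T47D and PC3 cells did not differ (edgeR adjusted p = 0.0600). KDM5C was level in T47D (28.2 ± 3.31 RPKM), A549 (27.6 ± 2.89) and PC3 cells (25.5 ± 3.65), with no pair of these differing, and lower in HCT116 cells (11.1 ± 1.86). KDM6A ran from 6.84 ± 0.251 RPKM in T47D through 5.42 ± 0.314 in PC3 and 4.51 ± 0.358 in A549 to 2.98 ± 0.256 in HCT116 cells, and of these neighbours PC3 and A549 cells did not differ (adjusted p = 0.105).

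KDM2B and KDM6B did not pass the test of a difference between lines. KDM2B had means from 7.09 RPKM in A549 to 9.36 RPKM in PC3 cells (edgeR adjusted p = 0.0976), although scaling to total counts gave an adjusted p of 0.0272. KDM6B had means from 2.84 RPKM in PC3 to 3.24 RPKM in HCT116 cells (adjusted p = 0.807). Thus 5 genes had their lowest normoxic mean in HCT116 cells, the line with the largest hypoxic fold change for each of the 7 when all libraries were used. For KDM5A that lead was within the error (log2 fold change 0.59 ± 0.20 against 0.55 ± 0.21 in T47D cells, SE, n = 3 against 3), and without the third hypoxic library T47D cells were higher, at 0.71. The same normoxic HCT116 libraries enter both quantities.

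The enzymes that write the same marks, their partners and the other demethylases were counted in the same fits, without the GC content and length correction, so these calls carry the length shift described above. Over the 4 lines together, 15.9% of the tests of all genes gave a rise and 16.7% a fall. Of the 10 other JmjC demethylases tested, 5, 7, 6 and 4 rose in A549, HCT116, PC3 and T47D cells and none fell. KDM3A, an H3K9 demethylase, rose by 1.62, 3.18, 0.79 and 2.50 on the log2 scale in these lines, KDM4B by 1.66, 2.99, 1.07 and 0.82, and KDM4C by 0.48, 1.91, 0.41 and 0.86. The study chose these 3 genes on the same samples, so that count is not independent evidence of direction. Their median over the 10 genes was 0.46, 0.90, 0.37 and 0.54. Of the flavin-dependent demethylases, which need no alpha-ketoglutarate, KDM1A rose in PC3 cells (0.51, edgeR adjusted p = 0.00854) and was not called in A549 (-0.057), HCT116 (0.47) or T47D cells (0.36), and KDM1B was called in no line.

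The methyltransferases of H3K4, which KDM5 enzymes oppose, gave 12 rises (18.8% of 64 tests, near the share of all genes) and 3 falls over the 4 lines. Of 16 subunits of COMPASS-type complexes, 5 rose in HCT116 and 7 in PC3 cells, none rose in A549 or T47D cells, and 1 fell in each of A549, HCT116 and PC3 cells. The subunit that fell was DPY30, by 0.44, 1.97 and 0.54 on the log2 scale. NCOA6 rose in HCT116 (0.94) and PC3 cells (0.51), and so did MLL, now KMT2A (0.98 and 0.50). The rows named MLL2 and MLL4 stand for KMT2B and KMT2D, but older usage gave both names to both genes, so which row is which was not resolved. MLL2 and MLL4 rose in PC3 cells alone (0.48 and 0.28).

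For Polycomb repressive complex 2, which writes the H3K27 methylation that KDM6 enzymes remove, 10 of 44 tests over the 4 lines (22.7%) gave a fall and 3 (6.82%) a rise. The shares of all genes were 16.7% and 15.9%. The falls were 4 of 11 in A549 cells, where 17.8% of all genes fell, and 4 of 11 in HCT116 cells, where 27% did. PC3 cells, where 15.7% of all genes fell, had 2 falls and T47D cells none, while 2 rose in HCT116 and 1 in T47D cells. EZH2, the catalytic subunit, fell by 0.62, 0.62 and 0.53 on the log2 scale in A549, HCT116 and PC3 cells and was not called in T47D cells (-0.37, edgeR adjusted p = 0.259). EED, its core partner, fell by 0.64 in A549 and 1.22 in HCT116 cells. It was not called in PC3 (0.016, edgeR adjusted p = 0.913) or T47D cells (-0.32, adjusted p = 0.299). The accessory subunit JARID2, a catalytically inactive relative of the KDM5 proteins, rose by 1.62 in HCT116 cells, and AEBP2 rose by 1.13 in HCT116 and 0.78 in T47D cells. The median of the 11 was -0.22, -0.40, 0.016 and -0.30.

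Partners of KDM2B in the variant Polycomb complex PRC1.1 gave 7 rises (21.9%) and 6 falls (18.8%) among 32 tests over the 4 lines, both near the shares of all genes. BCORL1 rose by 0.85, 1.39 and 0.93 on the log2 scale in A549, HCT116 and PC3 cells. YAF2 fell by 1.73, 0.68 and 1.08 in HCT116, PC3 and T47D cells, and SKP1 fell by 1.55 in HCT116 cells. The H3K36 methyltransferases, which KDM2 enzymes oppose, had 4 rises among 24 tests, a share near that of all genes, and no fall, with ASH1L up in HCT116 (0.65) and PC3 cells (0.42) and NSD1 (0.69) and WHSC1, now NSD2 (0.58), up in HCT116 cells. In the SIN3 and HDAC co-repressor, with which KDM5 proteins associate, 7 of 40 tests gave a rise (17.5%, near that of all genes) and 2 a fall. SAP30, which the study chose on these samples, accounted for 4 of the rises (0.74, 0.98, 0.47 and 0.97), SIN3A rose in A549 (0.32) and HCT116 cells (0.94), and C11orf30, now EMSY, rose in PC3 cells (0.38).

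**Figure D5:**
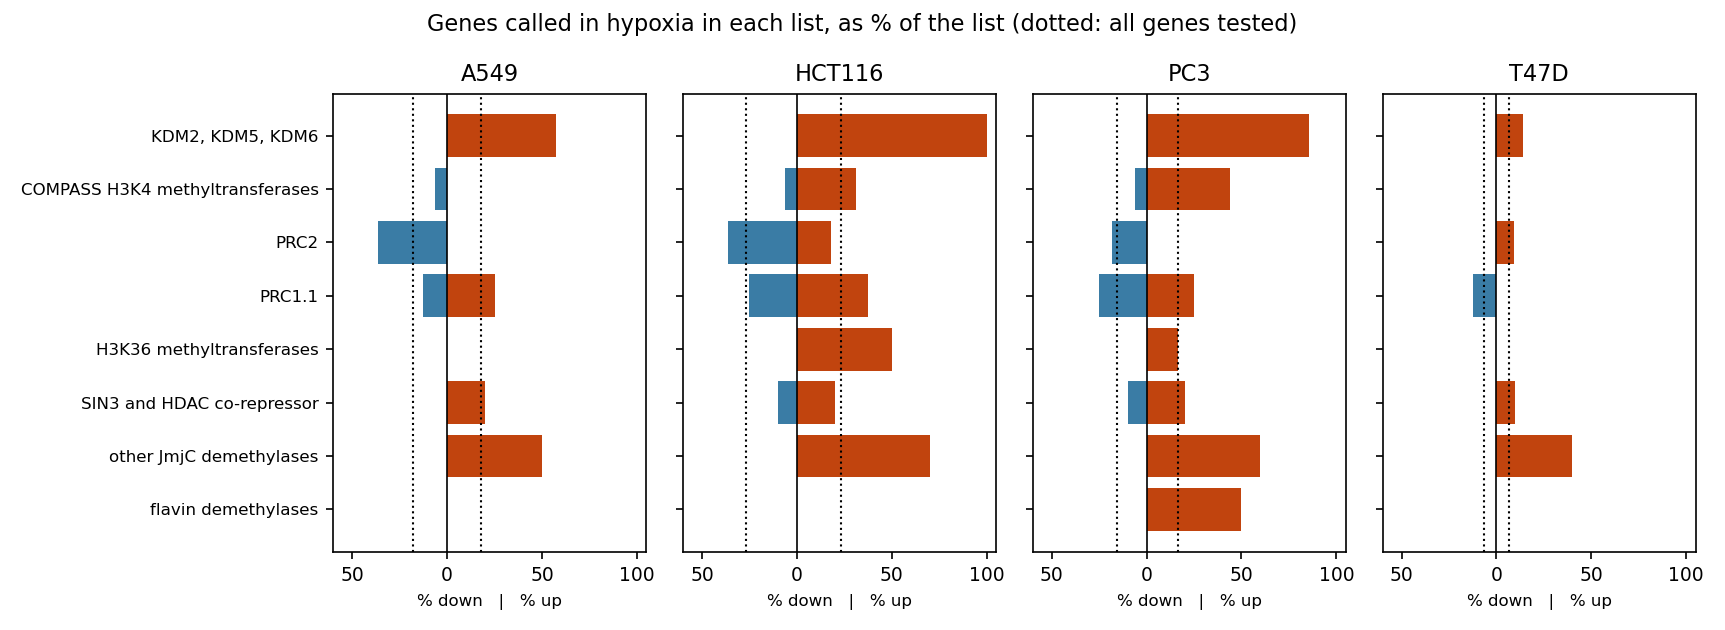
The share of each gene list called upregulated (right, red) or downregulated (left, blue) in hypoxia, as % of its genes tested in a line, with dotted lines at the shares of all genes tested. The KDM2, KDM5 and KDM6 genes and the other JmjC demethylases have no blue bar, and Polycomb repressive complex 2 (PRC2) has blue bars in 3 lines.

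The levels of the 7 genes were positively correlated over libraries. Over the 24 libraries, after the mean of each line was taken off, Pearson's r of log2 CPM ranged from 0.64 (KDM5A and KDM6A) to 0.94 (KDM2A and KDM2B) over the 21 pairs, with a median of 0.86. These points share oxygen state, library and the long-transcript shift described above, so the values are a description. They are pooled over the 4 lines and do not show that each gene moved in each line, as KDM6A in A549 and PC3 cells shows. Among 9295 genes expressed in all lines, the genes most like each member by the same measure were GBF1 (0.99), ZNF592 and ERC1 for KDM2A, ARHGEF7 (0.98), UBE2O and FBXL19 for KDM2B, and REST (0.97), PDS5B and UBR3 for KDM5A. They were NPEPPS (0.98), UBE2H and GNAS for KDM5B, and JARID2 (0.98), FBXO11 and RCOR1 for KDM5C. The study chose NPEPPS as a gene induced by hypoxia on the same samples. KDM6A was the least matched, by BAIAP2L1 (0.92), DNMBP and GMEB1, and KDM6B was closest to AHDC1 (0.96), CHD2 and AKNA.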

How the data were processed

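Counts of 24 libraries were analyzed. The authors made the deposited counts by trimming, alignment to GRCh37, removal of fragments without a unique position and counting on UCSC genes in intersection-strict mode. Their processing notes list Trim Galore 0.3.3, HISAT2 2.05, Picard 2.0.1, HTSeq 0.5.4p3 and DESeq2. The deposited counts are whole numbers without normalization, and the labels give no batch or date. A level of 3 counts, taken as the floor of a library, correspond to 0.0477 to 0.132 CPM, which covers counting error only.

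Computed here with edgeR 4.0.16 in R 4.3.3 were filterByExpr, TMM scaling, the quasi-likelihood test (glmQLFit, glmQLFTest) within each line and Benjamini-Hochberg adjustment over all genes tested. A gene was called at adjusted p under 0.05 if its fold exceeded 1.2. Interaction and normoxia fits held 24 and 12 libraries. RPKM used TMM scaling over the 24 libraries. The alternatives were another tool (DESeq2 1.42.0), RLE and total-count scaling, no filter or a minimum mean count of 50, a replicate block, a single fit of 24 libraries, a minimum fold of 1.5, a stricter adjusted p (0.01) and leaving out libraries. Added later were merged exons and a correction of each library by splines with 5 degrees of freedom in GC content and length, from GRCh37 with GENCODE 44 annotation, which held 93.4% of symbols. The fits were tested on simulated data.

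Replicate numbers 1 to 3 are shared by both oxygen states in the labels. Deviations from group means correlated between same-numbered libraries by 0.118 to 0.158 in PC3 and 0.224 to 0.329 in T47D cells. The lowest values were 0.0505 in A549 and 0.0894 in HCT116 cells. Differently numbered libraries reached 0.151 in T47D, 0.126 in A549 and 0.116 in HCT116 cells, and were negative in PC3 cells. Any pairing in PC3 and T47D cells is inferred from these values alone. The main fits did not use it, and the replicate block was an alternative.

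The 7 genes and the gene lists were chosen with earlier results of these data known. Named genes are the 7 members, the 3 genes of each list with the smallest adjusted p in any line, EZH2, KDM1A, MLL2 and MLL4, and the 3 genes most correlated with each member. RNF34, CCDC77 and PDK1 were named after their values were seen. Y-linked relatives are not reported here.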

Additional observations from a re-analysis of the deposited data

Results flagged for a closer look

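The response of KDM5B, KDM5C and KDM6A to hypoxia differed between the 4 lines by the interaction test of edgeR, with adjusted p = 0.0113, 0.0118 and 0.031. The fitted log2 fold changes in A549, HCT116, PC3 and T47D cells were 0.80, 2.16, 0.81 and 1.201 for KDM5B and 0.17, 1.27, 0.48 and 0.47 for KDM5C. For KDM6A they were -0.015, 0.77, -0.073 and 0.32, and its hypoxic libraries were all above the normoxic ones in HCT116 cells and all below them in PC3 cells, which 28.2% and 25.6% of all genes tested showed in these lines. The PC3 change of KDM6A was not called (log2 fold change -0.12, edgeR adjusted p = 0.303). Without replicate 2 of each group none of the 3 passed (adjusted p = 0.396, 0.368 and 0.645).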

How the results depend on the processing

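The counts of members called upregulated in A549, HCT116, PC3 and T47D cells (4, 7, 6 and 1) stayed within 1.5 times, and no member was downregulated under any alternative. The exceptions follow, and for the changed calls the cause was not tested. DESeq2 gave 2 members in T47D cells, and 4463 genes whose effect differed between lines. Total-count scaling gave 2 members in A549 cells. A minimum fold of 1.5 left 2 members in A549 and 2 in PC3 cells, with 2542 and 1911 genes called. At an adjusted p under 0.01 the members were 2, 3 and 0 in A549, PC3 and T47D cells and the genes 2734, 1549 and 416, and 0 members and 847 genes differed in effect. With 1 fit of all libraries 2, 2 and 4 members and 2609, 1292 and 3830 genes were called in A549, PC3 and T47D cells. The added GC and length correction gave 2, 3 and 3 members in A549, HCT116 and PC3 cells, and with the replicate block also 2, 4, 3 and, in T47D cells, 2 members and 3696 genes. It turned KDM5C in A549 cells to -0.19 (-0.20 with the block) and KDM6B in T47D cells to -0.095 (-0.14 with the block).

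Leaving out 1 library gave 2 to 5 members in A549 and 0 to 5 in T47D cells, and 3109 to 5331, 2183 to 5361 and 199 to 3305 genes in A549, PC3 and T47D cells. KDM6A in A549 cells ranged from -0.072 to 0.046. Leaving out a replicate number gave 0 to 2 members and 165 to 2478 genes whose effect differed between lines. In the labels of each line, libraries of the 2 oxygen states share only a number. With the replicate block KDM2B was not called in A549 cells (0.34, edgeR adjusted p = 0.0614), KDM6B was (0.50, adjusted p = 0.0478), and KDM6A no longer differed between lines (adjusted p = 0.0506), while the other member calls were as without it. Of 420 values of a member under alternatives other than the added correction, 367 kept direction and call, 39 lost the call, 12 gained it and 2 changed sign without a call. The lowest count of a member in a library was 479, and what part depth had in the changed calls was not tested.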

Other observations

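The share of KDM5B in its family was higher in hypoxia in each line. The mean KDM6B share was also higher in hypoxia in each line, but its libraries overlapped in all lines except PC3. The mean KDM2B share was lower in hypoxia in A549, HCT116 and PC3 cells and higher in T47D cells. Shares are of RPKM over canonical transcripts, given as mean ± SD over 3 libraries. They are a description, since the levels behind them are tested in the report, and differences in share between lines were not tested. KDM5B made up 30.3 ± 3.97% of the RPKM of KDM5A, KDM5B and KDM5C in normoxic and 42.05 ± 2.53% in hypoxic T47D cells. In HCT116 cells its share was 11.9 ± 2.86% and 20.8 ± 3.27%, in A549 cells 13.5 ± 0.035% and 19.0 ± 2.14%, and in PC3 cells 14.2 ± 0.443% and 17.2 ± 1.21%. In each line the hypoxic libraries were all above the normoxic ones, also with merged exons as length, where the T47D shares were 23.5% and 33.5%.

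KDM2B made up 53.3 ± 4.09% of the RPKM of KDM2A and KDM2B in normoxic HCT116 cells, and 45.9 ± 1.03% in hypoxia. The share also went from 36.5 ± 3.09% to 29.5 ± 0.374% in A549 and from 33.4 ± 1.35% to 29.1 ± 1.76% in PC3 cells, and in these 3 lines the hypoxic libraries were all below the normoxic ones. T47D cells had the lowest share of KDM2B, at 22.0 ± 1.15% in normoxia and 24.1 ± 2.06% in hypoxia, which overlap. The size of the KDM2B share depends on transcript length. With merged exons it was 38.5% in normoxia and 31.7% in hypoxia in HCT116, 24.01% and 18.6% in A549, 21.5% and 18.4% in PC3 and 13.4% and 14.8% in T47D cells. KDM6B made up 34.4 ± 0.387% of the RPKM of KDM6A and KDM6B in normoxic PC3 cells and 46.0 ± 0.459% in hypoxic ones. The KDM6B share overlapped between the oxygen states in T47D (29.8 ± 4.82% and 31.2 ± 6.73%), A549 (38.9 ± 4.11% and 47.7 ± 7.57%) and HCT116 cells (51.2 ± 7.19% and 60.7 ± 4.97%). The KDM6B share also depends on transcript length, and with merged exons it was 68.5% and 77.9% in PC3 cells. No share here carries the GC content and length correction, and what it would do to the shares was not tested. With it KDM6B was called in no line, PC3 included, and its log2 fold change in HCT116 cells was 0.25 in place of 1.17.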
